A study of Mus musculus with 1920 samples.

Results

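The 36 genes described here encode proteins of the lysosome in mouse microglia: 6 lysosomal membrane proteins, 11 proteins that handle lipids and sterols, 9 hydrolases of glycans, glycogen or peptides, 7 subunits or accessory proteins of the vacuolar proton pump, and a group of 3 made up of progranulin, the regulator Tfeb and the channel Mcoln1. They were chosen by symbol from a named list and each was matched to a single Ensembl identifier of the count table through the gene annotation of mouse build GRCm38, with the cathepsins left out. They are 36 of 48709 gene entries. The list was chosen with earlier results of these data known, so counts of its members beside the share over all genes are descriptive. Microglia, the macrophages that live in brain and spinal cord, had been sorted 1 per well by flow cytometry, with antibodies to CD11b, CD45, Ly6C, Ly6G and CD206, from CD1 mice, an outbred stock, aged 16 weeks and perfused with saline. Libraries were made by Smart-seq2, which reads whole transcripts and adds no molecular identifiers. From untreated mice there were cells of spinal cord and of 5 brain regions, namely cortex, hippocampus, cerebellum, corpus callosum and facial nucleus. Further cells came from the facial nucleus 3 or 14 days after axotomy, the cutting of the facial nerve, and cells of corpus callosum in the demyelination or the remyelination stage of cuprizone treatment, a copper chelator whose feeding causes loss of myelin. The duration of cuprizone treatment is not given in the sources used here, and for axotomy the tissue label names the facial nerve where the source label names the facial nucleus. The labels give 4 replicates in each of the 10 groups, while the design text names 3 to 4 mice for a condition and says that untreated regions came from the same mice. Should a mouse have given more than 1 replicate of a group, the SDs and p-values would cover only part of the spread between animals.

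Lysosomes are acidic organelles in which macrophages break down material taken up from outside the cell and worn parts of the cell itself. The vacuolar proton pump acidifies their interior, soluble hydrolases cut glycans, lipids and peptides, the Npc proteins and acid lipase release cholesterol, and heavily glycosylated membrane proteins line the membrane. Microglia take up myelin debris after damage to white matter, and many lysosomal genes share an E-box-like promoter motif bound by Tfeb and its relatives.

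After filtering, 1644 of 1900 cells remained, with between 129 and 181 per group and 5298853 to 19964472 gene counts per mouse and group. Remyelination stood apart: 67.9% of its wells were kept against 81.1% to 95.3% elsewhere, its cells had a median of 1517 genes read, and spike-ins took a median of 18.4% of counts. Demyelination cells had a median of 2137 genes read, against 2926 in untreated corpus callosum. All 12 microglia markers were read in every group, with a summed level of 50000.0 to 56012 CPM over the mice of untreated corpus callosum, 21289.9 to 25889 CPM in demyelination and 20370.4 to 28253 CPM in remyelination. Apoe alone took 8.68% of gene counts in demyelination and 13.9% in remyelination, against at most 0.215% in the other groups, so levels below are normalised read counts in CPM, each gene's counts relative to the library total, with composition scaled by TMM (trimmed mean of M-values) on a single scale for all 40 sums, given as mean ± SD over 4 mice. Fold changes come from each comparison's own fit and differ slightly from the ratio of these levels. Their standard errors were worked back from the fold change and the F statistic of its test. Each plate held a pair of groups: both axotomy days, both cuprizone stages, hippocampus and cortex, facial nucleus and cerebellum, or spinal cord and corpus callosum. Every comparison of an injured with an untreated group therefore crosses plates, and plate and treatment cannot be told apart in it. Regions of different pairs also lay on different plates, and plate and region cannot be told apart between them.

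In untreated microglia the lysosomal genes spanned a wide range of levels, and none passed the test for a difference between regions that takes the sums as independent. Per kilobase of exon, averaged over the 6 regions, Psap, the precursor of the saposins that help hydrolases reach sphingolipids, was highest at 1071 CPM per kb, followed by Laptm5, a lysosomal membrane protein of blood-derived and microglial cells, at 1045. Hexa, the alpha subunit of beta-hexosaminidase, stood at 791, Cd68, a macrophage protein of the Lamp family, at 786 and Grn, the gene of progranulin, at 498 CPM per kb. At the lower end were Tfeb at 3.77, the pump subunit Atp6v0c at 2.45, Gla, alpha-galactosidase A, at 1.24 and the pump subunit Atp6v0d2 at 0.334 CPM per kb. Atp6v0c has 2 named pseudogenes and its reads may have been split among them. The 36 genes together took between 2.02% ± 0.0612 (facial nucleus) and 2.31% ± 0.113 (cortex) of gene counts in untreated regions. The test of any difference among the 6 regions (edgeR's quasi-likelihood F test, Benjamini-Hochberg adjustment over all 22907 genes tested, threshold 0.05) called 0 of the 36 genes, where it called 0.1% of all genes. At an unadjusted p below 0.05 there were 8 of the 36, against 10.3% of all genes. DESeq2 called 3, Grn, Laptm5 and Atp6v0d1, and 204 of all 22907 genes. Laptm5 had the lowest p: its levels were 4668, 5255, 4646 and 4865 CPM in the cortex of the 4 mice and 3199, 3544, 3165 and 3120.0 CPM in cerebellum, with no overlap (adjusted p = 0.203, all 6 regions). Blocking on replicate number, which would hold the mouse if numbers mark mice, let Laptm5 pass (adjusted p = 0.0446), 1 of 36. Without the block Grn was next, at 2273 ± 384 CPM in cortex and 1371 ± 148 CPM in cerebellum (adjusted p = 0.23). Cortex and cerebellum lay on different plates, so for Laptm5 and Grn region and plate cannot be told apart.

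**Figure D1:**
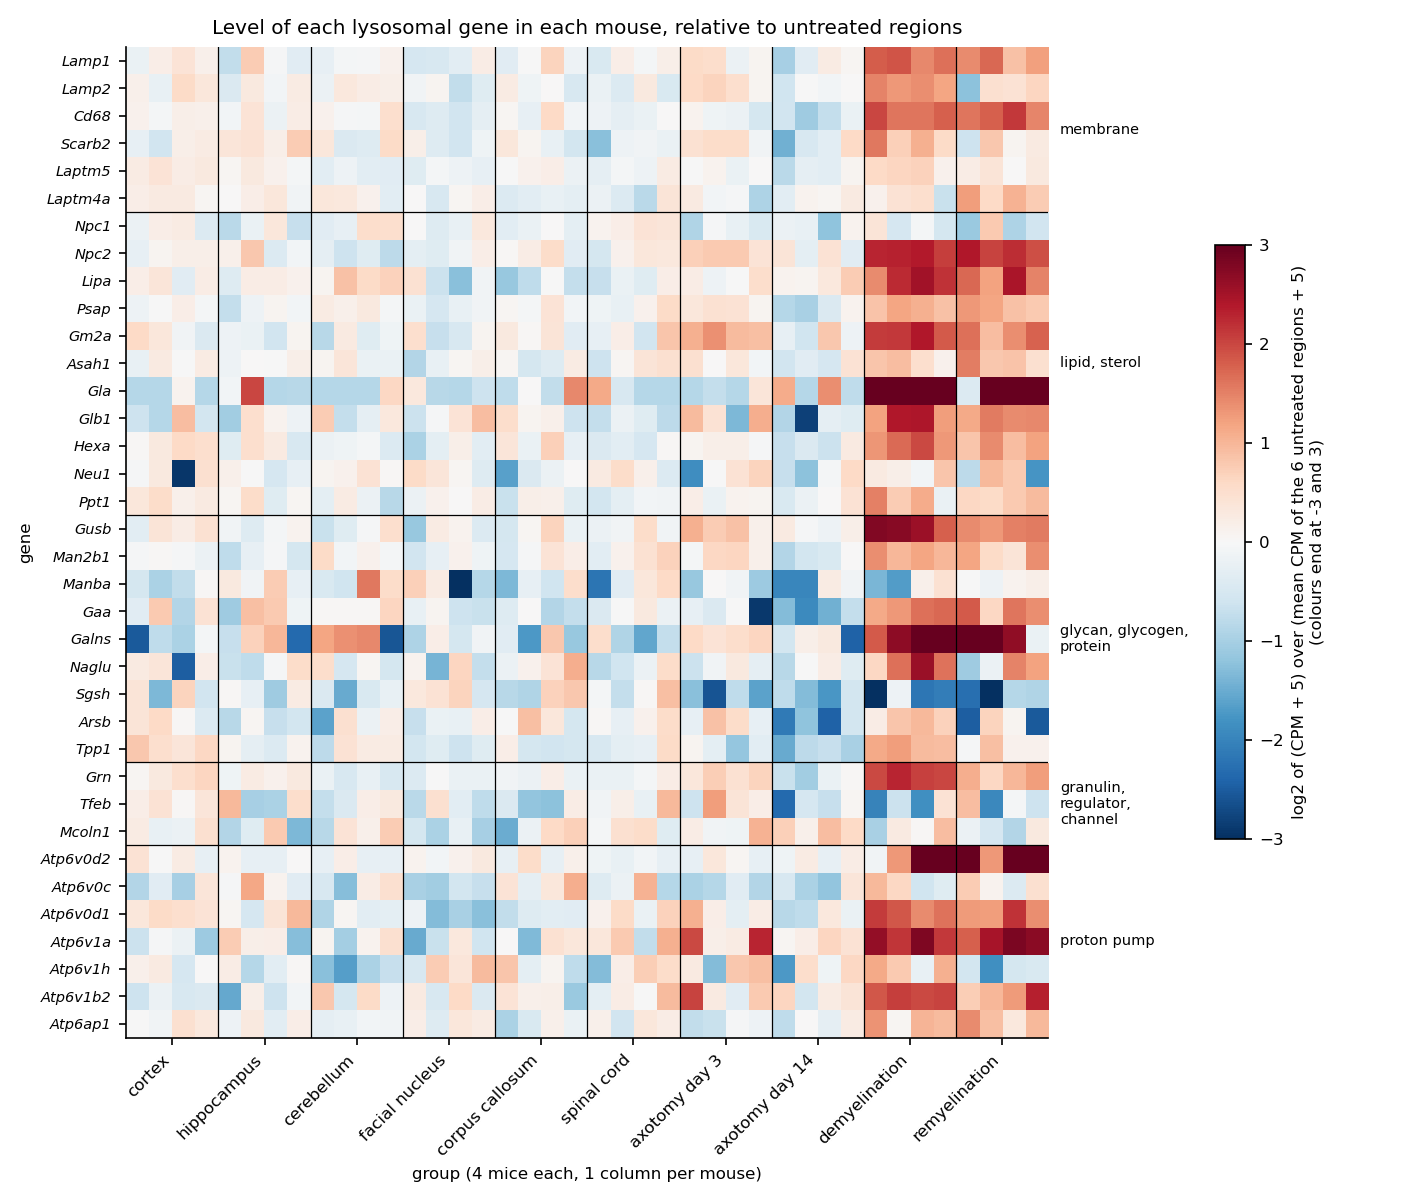
Level of each of the 36 lysosomal genes (rows, ordered by role) in each of the 40 mouse sums (columns, 4 per group), as log2 of CPM plus 5 over the mean of the 6 untreated regions plus 5, with colours ending at -3 and 3. The demyelination and remyelination columns are red for most genes, the untreated columns are mostly pale, and Sgsh is blue in most injured columns.

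In demyelination, microglia of the corpus callosum gave a larger share of their reads to lysosomal genes than untreated ones did. Of the 36 genes, all tested, 19 rose and 0 fell at an adjusted p below 0.05, where 3.08% of all 14057 genes tested rose and 5.16% changed either way. The fitted log2 fold change was above 0 for 31 genes and below 0 for 5, with a median of 1.30 over the 36 against -0.33 over all genes tested. Unadjusted p fell below 0.05 for 26 of the 36, all of them higher (20.3% of all genes), and the demyelination and untreated mice did not overlap for 20 (23.3% of all genes). By role, 3 of 6 membrane proteins, 6 of 11 lipid and sterol genes, 5 of 9 glycan, glycogen and peptide hydrolases, 4 of 7 pump genes and Grn rose. The share of gene counts taken by the 36 genes was 3.53%, 3.73%, 3.63% and 3.30% in the 4 demyelination mice and 2.10%, 2.25%, 2.53% and 2.11% in untreated corpus callosum, again without overlap. These shares are unscaled. Without the composition scaling, in an alternative chosen after seeing the data, 10 of the 36 passed, all higher, and the median over all genes moved from -0.33 to -0.97. The calls over all genes were 433 higher and 292 lower with the scaling, 206 and 597 without it, and 651 and 1294 by DESeq2.

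**Figure D2:**
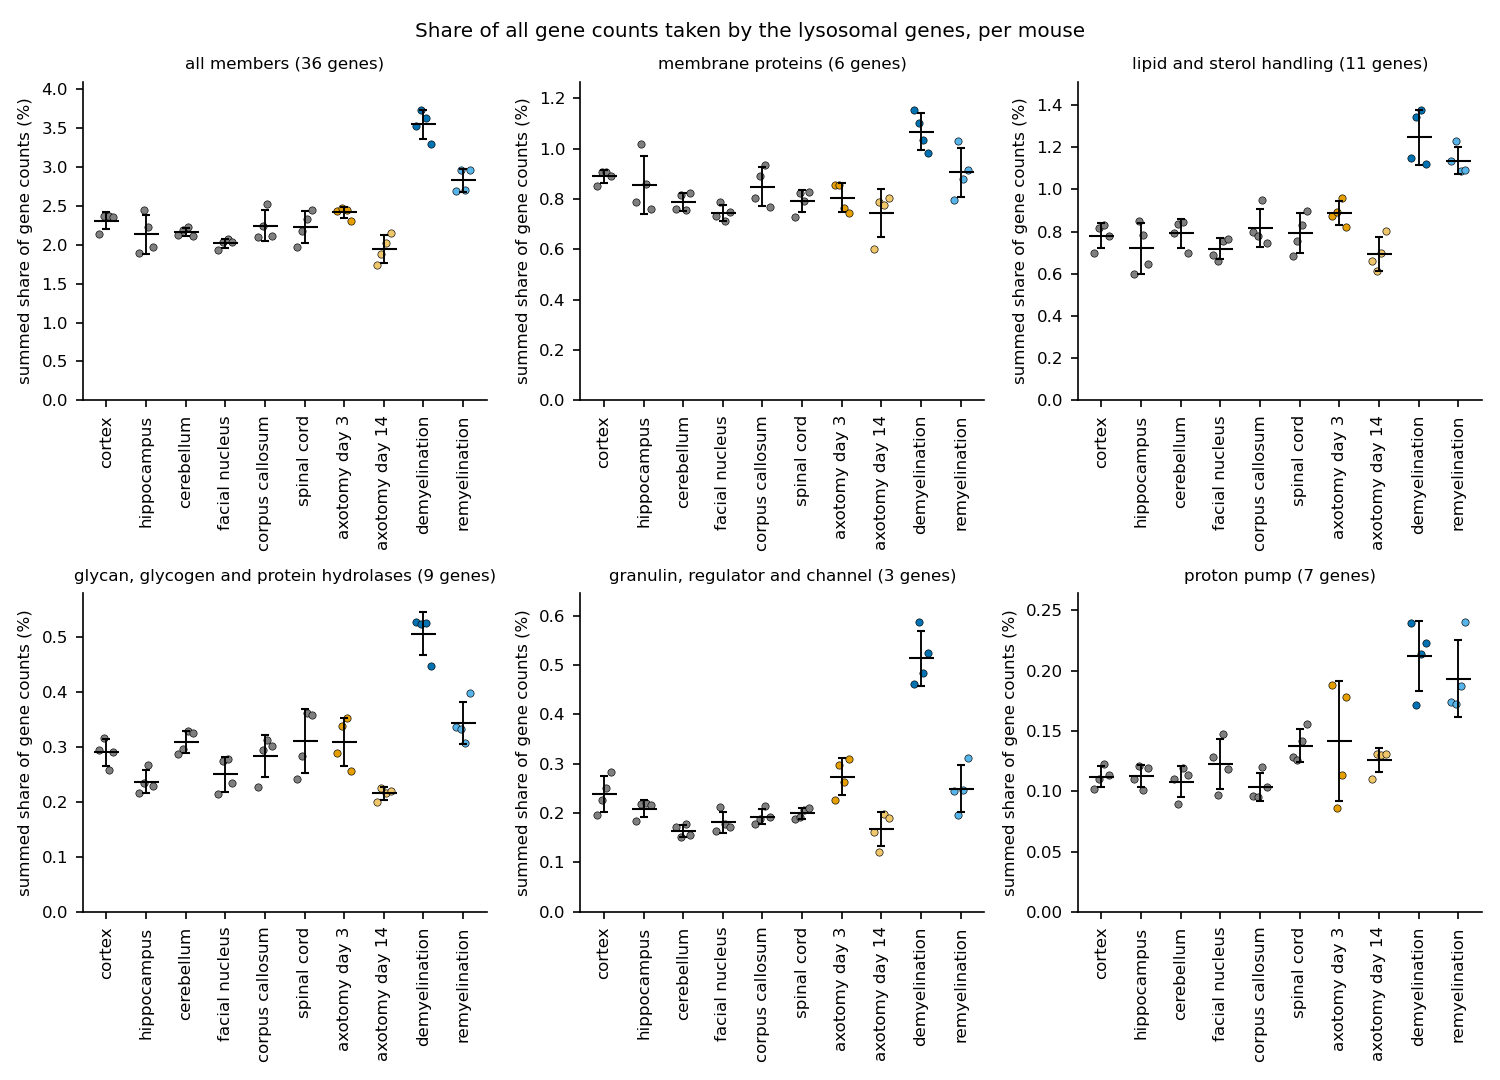
Share of all gene counts in percent (vertical axes, from 0) taken by the 36 genes together and by each of the 5 role groups, in each mouse (points) of the 10 groups, with mean and SD over 4 mice (bars). For all 36 genes the demyelination mice lie above every untreated mouse, as do the remyelination mice, and the day 3 axotomy mice lie above those of facial nucleus.

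Among the membrane proteins, Cd68 was at 3997, 3015, 3026 and 3441 CPM in the demyelination mice and at 1035, 832, 1488 and 939 CPM in the untreated ones. Every demyelination mouse was above every untreated mouse (log2 fold change 1.58 ± 0.20, adjusted p = 9.06e-05). Lamp1, a major glycoprotein of the lysosomal membrane, was at 3689.8, 3921, 2859.8 and 3291 CPM against 829, 1037, 1674 and 936 CPM (log2 fold change 1.55 ± 0.23, adjusted p = 5.98e-04). Its relative Lamp2, which also serves chaperone-mediated autophagy, was at 1904, 1683, 1771 and 1535 CPM against 802, 619.9, 675 and 483 CPM (log2 fold change 1.34 ± 0.30, adjusted p = 0.0176). The groups did not overlap for either Lamp gene. A further 3 membrane proteins did not pass: Scarb2, a receptor that carries an enzyme to lysosomes, had a log2 fold change of 1.02 ± 0.33 (adjusted p = 0.0809), Laptm5 of 0.41 ± 0.15 (0.118) and Laptm4a of 0.40 ± 0.26 (0.438). In a sum over cells, more cells with a transcript and more transcript per cell cannot be told apart, and shares of cells are given further on.

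In the lipid and sterol group, Npc2, the soluble carrier that takes cholesterol out of the lysosome, had the lowest p of its group. It was at 3157, 3224, 3338 and 2716 CPM in demyelination against 656, 748, 948 and 510.4 CPM (log2 fold change 2.05 ± 0.19, adjusted p = 5.54e-06). Its membrane partner Npc1 was at 239 ± 77.7 CPM against 227 ± 25.1 CPM (log2 fold change -0.01 ± 0.42, adjusted p = 0.996). Lipa, the acid lipase that frees cholesterol from its esters, was at 499, 890.3, 1074 and 836 CPM against 81.3, 106, 183 and 109 CPM (log2 fold change 2.71 ± 0.35, adjusted p = 1.21e-04). Gm2a, the activator that presents GM2 ganglioside to hexosaminidase, was at 899, 914, 1106 and 749.9 CPM against 252, 211, 269 and 162 CPM (log2 fold change 1.96 ± 0.26, adjusted p = 1.70e-04). Glb1, beta-galactosidase, was at 206, 474, 483 and 213 CPM against 126, 91.2, 96.3 and 54.4 CPM (log2 fold change 1.83 ± 0.39, adjusted p = 0.0108). No mouse of the untreated group reached the demyelination range for any of Npc2, Lipa, Gm2a and Glb1. Hexa rose from 1715 ± 566 CPM to 4491 ± 1037 CPM (log2 fold change 1.32), and Psap, at 5284, 6728, 6163 and 5387 CPM against 3082, 2839, 3917 and 2799 CPM, had the smallest called change (log2 fold change 0.82 ± 0.16, adjusted p = 0.0054). Exons of Glb1 overlap those of Tmppe on the same strand and those of Hexa overlap Tmem202 on the other, and the files do not say how such reads were assigned.

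The remaining 4 lipid genes besides Npc1 did not pass. Gla, whose loss causes storage of globotriaosylceramide, was at 153, 99.6, 115 and 171 CPM in demyelination and 0.340, 4.11, 0.451 and 19.7 CPM in untreated corpus callosum, which do not overlap (log2 fold change 4.34 ± 1.26, adjusted p = 0.0546). DESeq2 called it, with an adjusted p of 0.0041. Ppt1, which removes palmitate from proteins, had a log2 fold change of 0.99 ± 0.30 (adjusted p = 0.0631), Asah1, acid ceramidase, of 0.67 ± 0.28 (0.177) and Neu1, the lysosomal sialidase, of 0.74 ± 0.63 (0.591).

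Of the hydrolases of glycans, glycogen and peptides, Galns, which removes sulphate from keratan and chondroitin sulphate, had the largest called fold: 99.97, 185, 249 and 252 CPM in demyelination against 18.3, 4.00, 46.6 and 8.47 CPM (log2 fold change 3.30 ± 0.84, adjusted p = 0.0353). The demyelination mice lay above the untreated ones, with a spread of more than 2-fold among themselves. Gusb, beta-glucuronidase, was at 3169.6, 3087, 2732 and 1595 CPM against 319.9, 475, 736 and 399 CPM (log2 fold change 2.38 ± 0.26, adjusted p = 2.70e-05). Gaa, the acid glucosidase that breaks down glycogen, was at 265, 297, 380.3 and 396 CPM against 88.4, 118, 61.9 and 69.9 CPM (log2 fold change 1.90 ± 0.35, adjusted p = 0.00407). Both pairs of groups were apart. Tpp1, a tripeptidyl peptidase, rose from 431 ± 126 CPM to 1136 ± 123 CPM (log2 fold change 1.32) and Man2b1, the lysosomal alpha-mannosidase, from 1078 ± 274 CPM to 2310.1 ± 313 CPM (1.02). Naglu, Arsb and Sgsh, which act in the breakdown of glycosaminoglycans, did not pass: Naglu had a log2 fold change of 1.28 ± 0.54, Arsb of 0.36 ± 0.62 and Sgsh of -2.07 ± 1.68 (adjusted p = 0.173, 0.822 and 0.569). Sgsh, heparan N-sulphatase, was the gene with the lowest fold of the 36, at 0, 32.6, 4.31 and 4.99 CPM against 18.5, 17.5, 62.6 and 69.2 CPM, and its groups overlapped. Manba, beta-mannosidase, had -0.17 ± 0.67 (adjusted p = 0.934).

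Grn, whose product progranulin is cut into granulins inside lysosomes, had the lowest adjusted p of the 36. It stood at 6832, 8474, 7160.2 and 6959 CPM in the demyelination mice and at 1597, 1533, 1984 and 1497 CPM in the untreated ones, a more than 4-fold difference in means without overlap (log2 fold change 2.08 ± 0.16, adjusted p = 7.04e-07). Tfeb, a transcription factor for lysosomal genes, was low in both, at 1.59, 11.9, 2.35 and 30.6 CPM against 14.5, 6.71, 6.22 and 25.9 CPM (log2 fold change -0.30 ± 1.36, adjusted p = 0.944). Mcoln1, a cation channel of the lysosomal membrane, was at 84.7 ± 44.4 CPM against 79.4 ± 45.6 CPM (log2 fold change 0.01 ± 0.64, adjusted p = 0.995). For both, a 2-fold change either way lies within the error at these levels.

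The proton pump consists of a V1 sector that splits ATP and a V0 sector in the membrane through which protons pass. Atp6v1a, the catalytic subunit of V1, was at 743, 526, 832 and 517 CPM in demyelination against 116, 43.0, 159.9 and 148 CPM (log2 fold change 2.41 ± 0.37, adjusted p = 7.81e-04). Atp6v1b2, its partner subunit, was at 663, 769, 719.5 and 744 CPM against 239.9, 201, 204 and 80.6 CPM (log2 fold change 1.93 ± 0.37, adjusted p = 0.00521). Atp6v0d1, the widely expressed form of the V0 subunit d, was at 547, 465, 337 and 394 CPM against 72.4, 93.1, 98.3 and 97.0 CPM (log2 fold change 2.19 ± 0.31, adjusted p = 3.57e-04). The groups were apart for all 3. Atp6ap1, an accessory protein needed for assembly, rose from 447 ± 139 CPM to 1047 ± 348 CPM with an overlap (log2 fold change 1.15 ± 0.31, adjusted p = 0.0475), and this call was lost in 12 of 21 alternatives. Atp6v0d2, the form of subunit d known from osteoclasts and macrophages, was at 0.467, 9.51, 118 and 106 CPM against 0, 3.68, 0 and 1.61 CPM. Mice 3 and 4 of demyelination were far above the untreated range, mouse 2 was slightly above it and mouse 1 within it, and the gene did not pass by edgeR (log2 fold change 5.35 ± 1.78, adjusted p = 0.0835) but did by DESeq2 (adjusted p = 0.00704). DESeq2 did not call Psap, Man2b1 and Atp6ap1 in demyelination. Atp6v0c, which forms the ring of V0, had a log2 fold change of -0.32 ± 1.25 at 11.5 ± 8.32 CPM, and Atp6v1h of 0.66 ± 0.55 (adjusted p = 0.931 and 0.581). In untreated corpus callosum 3 of 173 cells held 77.8% of the 568 Atp6v0c reads, so its control mean rests on few cells. In demyelination 3 of 161 cells held 43.4% of its 557 reads.

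**Figure D3:**
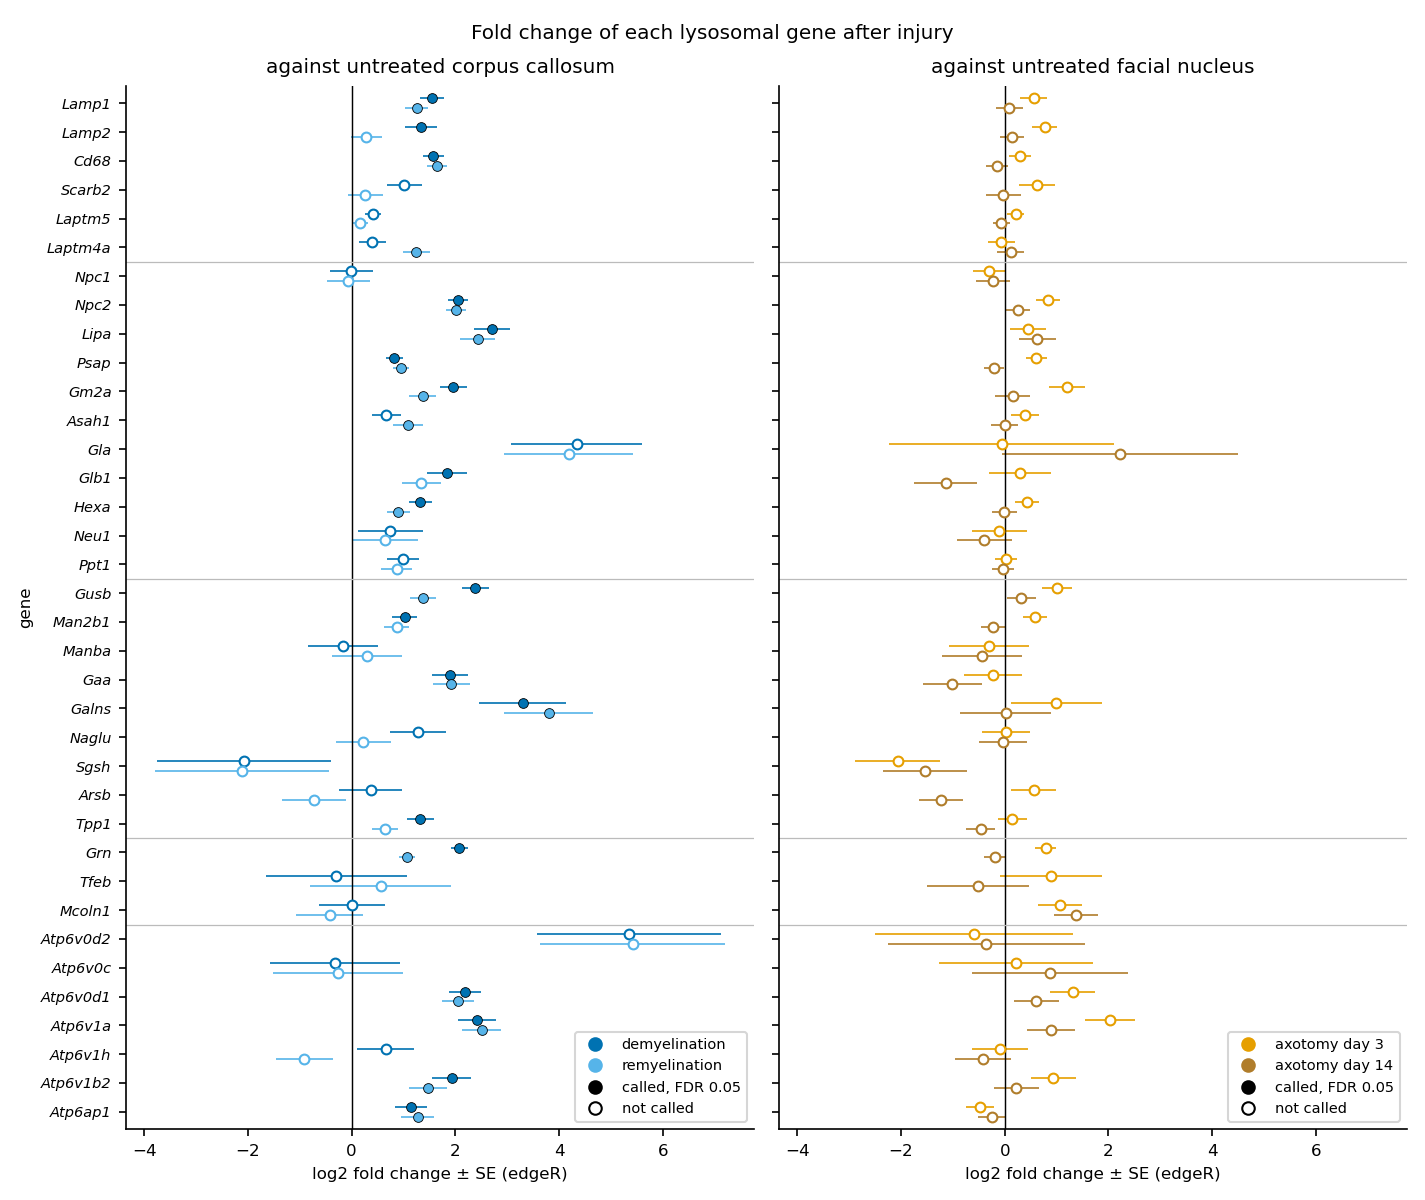
Log2 fold change with its standard error (horizontal axes) of each of the 36 genes in demyelination and remyelination against untreated corpus callosum (left) and on days 3 and 14 after axotomy against untreated facial nucleus (right). Filled points passed the edgeR test at an adjusted p below 0.05 and open points did not. All filled points lie on the left, 19 for demyelination and 17 for remyelination, and all are above 0.

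The sum of the monocyte markers was higher in demyelination, but not every marker rose: 9 were read in untreated corpus callosum and 6 in demyelination. The summed level of 9 monocyte markers was 386 to 1599.8 CPM over its mice and 16.7 to 173 CPM over those of untreated corpus callosum, with Ly6c2, Chil3 and Nr4a1 at 0 in demyelination. The 8 markers of border macrophages summed to 84.5 to 177 CPM and 62.8 to 313 CPM. Leaving out the 19 kept cells that had at least 3 of these 17 markers at 50 CPM or more, 4 of them from demyelination, left all 19 genes called.

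Because many of the members rose together, their promoters were read for the E-box that Tfeb and its relatives bind. RefSeq windows of GRCm38 from 250 bases before to 50 after each start were at hand for 30 of the 36 genes. Each motif reads the same on both strands, and the longer ones contain the shorter. CACGTG was in the windows of 9 of the 30 genes (30%), Atp6v0d1, Atp6v1a, Gaa, Gla, Glb1, Lamp1, Mcoln1, Naglu and Sgsh, and in those of 8.09% of all 27025 genes with a window. TCACGTGA was in 4 of 30 (13.3%), Atp6v0d1, Atp6v1a, Gla and Mcoln1, against 1.12% of all, and the same letters with a further G before and C after them in 0 of 30 against 0.370%. Of 17 genes that rose in demyelination and had a window, 5 held CACGTG, as did 4 of the 13 others. The windows of Grn, Cd68, Npc2 and Lipa held none, which says only that these letters are absent there. The stretches printed here run from at most 25 bases before the first copy of the motif (in capitals) to at most 25 after the last, 5′ to 3′ on the gene's strand. They are the 4 that end before the RefSeq start and lie wholly outside the Ensembl gene, which those of the other 5 genes do not. They are chr8:13159075-13159160 (plus strand) for Lamp1, chr9:114401005-114401060 (plus) for Glb1, chr11:119267798-119267853 (plus) for Gaa and chrX:134601168-134601255 (minus) for Gla.
Lamp1: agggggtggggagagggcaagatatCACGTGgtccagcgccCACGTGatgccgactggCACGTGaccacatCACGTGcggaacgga
Glb1: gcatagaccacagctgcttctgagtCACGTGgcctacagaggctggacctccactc
Gaa: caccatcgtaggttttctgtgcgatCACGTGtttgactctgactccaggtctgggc
Gla: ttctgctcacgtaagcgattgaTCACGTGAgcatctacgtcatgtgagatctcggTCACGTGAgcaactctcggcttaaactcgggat
Lamp1 carries 4 copies, the farthest beginning 61 and the nearest 15 bases before its start, and Gla carries 2 of the longer form TCACGTGA. Lamp1, Glb1 and Gaa were called in demyelination; Gla had a larger fold on few reads and was not. A match is a description of the sequence and not a measured binding site.

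Shares of cells with a read were compared after each cell was thinned to 20000 reads, which removes differences in depth between cells. For Npc2 the share was 80.5% ± 2.85 in untreated corpus callosum and 98.1% ± 1.29 in demyelination (SD over 4 mice). Unthinned it was 86.7% in untreated cells, while every demyelination cell had an Npc2 read. Unthinned shares also follow depth, a median of 201705 gene counts in untreated and 471755 in demyelination cells. Of 20 wells labelled negative, 7 had an Npc2 read. Cd68 and Grn were already read in most untreated cells, Cd68 in 86.2% ± 4.18 and Grn in 94.3% ± 2.85, and in demyelination in 92.0% ± 3.42 and 96.2% ± 2.73. The median level among cells with a Cd68 read was 922 CPM in untreated corpus callosum and 2115 CPM in demyelination. Of the 36 genes, 25 were read in a larger mean share of thinned cells in demyelination than in untreated corpus callosum and 11 in a smaller one. The mean level was lower too for 3 of these 11, Manba, Sgsh and Tfeb, and higher for the other 8, among them Npc1, which was read in 50.9% ± 8.07 of untreated and 37.8% ± 3.51 of demyelination cells. No order is read from the shares of these 8. Among genes with a larger share, Atp6v1a was read in 19.1% ± 3.51 of untreated and 52.4% ± 8.95 of demyelination cells, Atp6v0d1 in 30.7% ± 3.78 and 55.2% ± 1.68, and Galns in 6.28% ± 1.82 and 24.2% ± 10.6. Gla was read in 1.78% ± 1.19 of untreated cells and 17.6% ± 4.18 of demyelination cells. Unthinned, the shares were 28.4% and 67.3% for Atp6v1a, 40.5% and 68.2% for Atp6v0d1, 7.98% and 36.6% for Galns and 2.91% and 26.3% for Gla. Atp6v0d2 differed from all of these. It was read in 12 of 161 demyelination cells, and 3 cells held 83.1% of its 2995 reads, so its group mean rests on few cells. Sgsh was read in 28 of 173 untreated and 4 of 161 demyelination cells. A typical cell had reads of 16.8 ± 0.500 of the 36 genes in untreated corpus callosum, 19.1 ± 1.03 in demyelination and 15.2 ± 2.36 in remyelination (medians over cells, thinned, mean ± SD over mice). As background, 20 wells labelled negative, with a median of 524.5 gene counts, had a Laptm5 read in 15, a Psap read in 14 and a Cd68 read in 9, and none had a read of 9 genes, Scarb2, Lipa, Gla, Gaa, Galns, Sgsh, Tfeb, Atp6v0d2 and Atp6v0c, which allows a share of up to 15% of such wells by counting error alone.

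**Figure D4:**
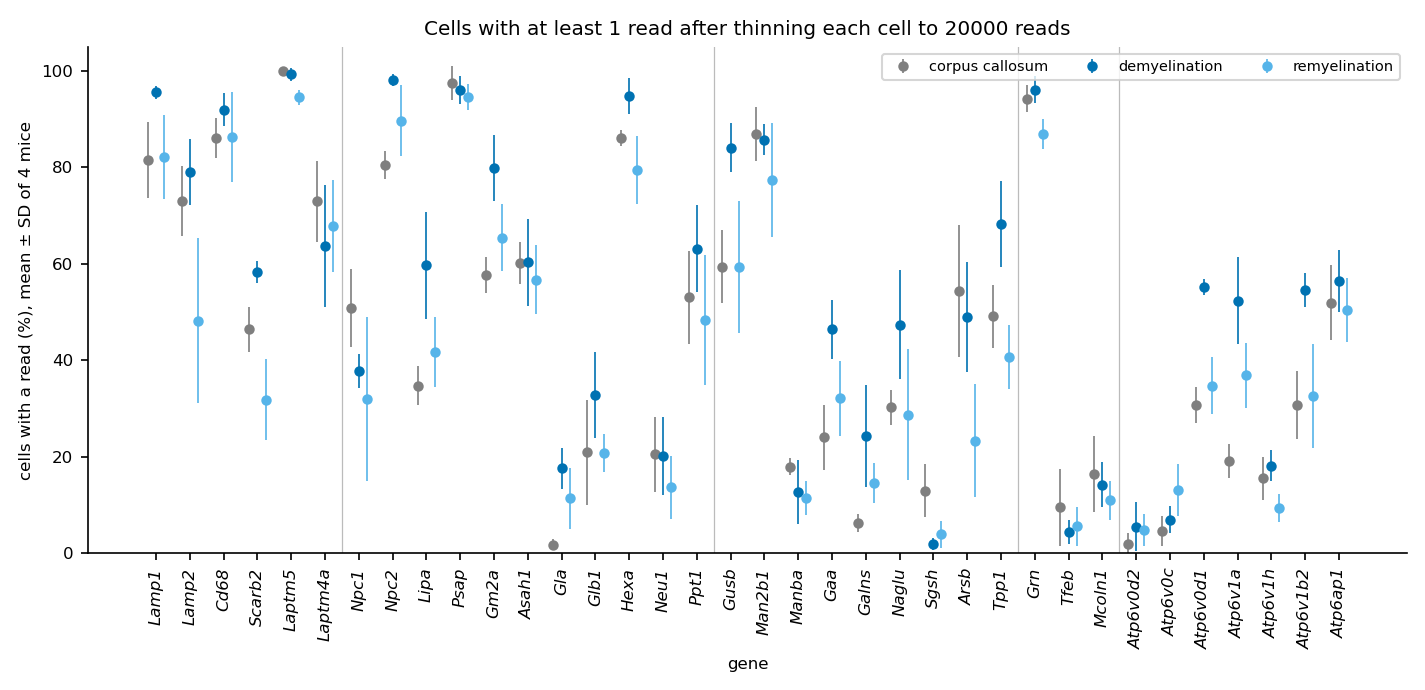
Share of cells with at least 1 read of each gene after thinning each cell to 20000 reads (vertical axis, percent), as mean and SD over 4 mice for untreated corpus callosum, demyelination and remyelination. Demyelination lies above untreated corpus callosum for Npc2, Gusb, Atp6v0d1, Atp6v1a and Gla, among others, and remyelination lies below untreated corpus callosum for 22 of the 36 genes. For 17 of these the mean level in CPM is higher in remyelination, so no order is read from their shares, and for 5 it is lower too.

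Lysosomal genes were also higher in remyelination. Against the same untreated corpus callosum mice, so with controls shared with demyelination, 17 of the 36 genes rose and 0 fell, where 2.51% of all genes tested rose and 3.12% changed. The fitted change was above 0 for 30 and below 0 for 6, with a median of 1.01 against -0.31 over all genes, and 23 had an unadjusted p below 0.05, all higher (18.8% of all genes). The mice did not overlap for 19 (17.6%). The 36 genes took 2.69%, 2.96%, 2.71% and 2.96% of gene counts. Without the composition scaling 5 passed, Npc2, Cd68, Lipa, Atp6v1a and Atp6v0d1, and the median over all genes moved from -0.31 to -0.98. The calls over all genes were 353 higher and 85 lower with the scaling, 148 and 175 without it, and 641 and 948 by DESeq2. The lower share of kept wells and the higher spike-in share of remyelination stand beside this result. With every well labelled as a cell kept, the count was again 17. Monocyte markers summed to 0.549 to 221 CPM in remyelination, border macrophage markers to 173 to 459 CPM and 6 oligodendrocyte markers to 75.2 to 1122 CPM (untreated 110.0 to 421 CPM), and the part of the last in these values was not tested. None of the 19 cells left out above came from remyelination, and without them the count was 17.

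The largest called folds in remyelination were in hydrolases, pump subunits and sterol genes. Galns was at 507, 335, 183 and 20.5 CPM (log2 fold change 3.80 ± 0.86, adjusted p = 0.0204), with mouse 4 inside the untreated range. Of 129 remyelination cells, 30 had a Galns read and 3 held 57.2% of its reads. In untreated corpus callosum 3 of 173 cells held 64.8% of its 853 reads, so these Galns means rest largely on few cells. Atp6v1a was at 409, 658, 839 and 773 CPM (log2 fold change 2.504 ± 0.37, adjusted p = 6.85e-04) and Atp6v0d1 at 308, 299.8, 573 and 333 CPM (log2 fold change 2.05 ± 0.31, adjusted p = 7.59e-04). Both lay above every mouse of untreated corpus callosum. Lipa was at 617, 429, 1031 and 526 CPM (log2 fold change 2.43 ± 0.34, adjusted p = 3.84e-04) and Npc2 at 3417, 2654, 2989 and 2455 CPM (log2 fold change 2.00 ± 0.19, adjusted p = 9.80e-06). Gaa was at 429.6, 181, 366.3 and 318 CPM (log2 fold change 1.92 ± 0.35, adjusted p = 0.00442). These 3 did not overlap the untreated mice listed above. Cd68 was at 3022, 3416, 4307 and 2733 CPM (log2 fold change 1.64 ± 0.20, adjusted p = 7.98e-05). Atp6v1b2 was at 303, 364.5, 443 and 930.4 CPM (log2 fold change 1.47 ± 0.36, adjusted p = 0.0357), Gusb at 1248, 1135, 1312 and 1361 CPM (log2 fold change 1.38 ± 0.25, adjusted p = 0.00442) and Gm2a at 655, 398, 552 and 721 CPM (log2 fold change 1.37 ± 0.25, adjusted p = 0.00451). Every remyelination mouse exceeded every mouse of untreated corpus callosum for each of these 10 genes but Galns.

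Atp6ap1 was at 1497, 1044, 695 and 1087 CPM against 287, 400.1, 616 and 487 CPM (log2 fold change 1.27 ± 0.31, adjusted p = 0.0344) and Lamp1 at 2808, 3465, 1917 and 2467 CPM (log2 fold change 1.25 ± 0.23, adjusted p = 0.00423), both without overlap. Smaller called changes were seen in Asah1 (log2 fold change 1.09 ± 0.28), Grn (1.06 ± 0.15), Psap (0.95 ± 0.16) and Hexa (0.90 ± 0.22). Laptm4a, not called in demyelination, was at 1392, 887, 1205 and 980.4 CPM against 432, 467, 495 and 476 CPM and rose (log2 fold change 1.24 ± 0.26, adjusted p = 0.0118). Lamp2, called in demyelination, did not pass in remyelination, at 282, 947, 908 and 1051 CPM, where mouse 1 lay below every untreated mouse (log2 fold change 0.28 ± 0.30, adjusted p = 0.708). The calls of Asah1, Atp6ap1, Hexa and Atp6v1b2 in remyelination were the least firm: Asah1 lost its call in 14 of 21 alternatives, Atp6ap1 in 9, Hexa in 8 and Atp6v1b2 in 7. Gla, at 1.84, 174, 131 and 161 CPM, was low in mouse 1 and high in the other 3 (log2 fold change 4.18 ± 1.25, adjusted p = 0.0699). Atp6v0d2, at 93.9, 9.45, 73.6 and 57.7 CPM, lay above every untreated mouse and did not pass by edgeR (log2 fold change 5.42 ± 1.78, adjusted p = 0.0935), and 3 of 129 cells held 91.6% of its reads. DESeq2 called Atp6v0d2, Gla and Glb1 in remyelination (adjusted p = 0.00577, 0.00592 and 0.0293) and did not call Asah1 and Hexa.

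The 2 cuprizone stages lay on the same plate, and between them Grn was the member that changed. Grn fell from 6832, 8474, 7160.2 and 6959 CPM in demyelination to 3661, 2684, 3487 and 4112 CPM in remyelination without overlap (log2 fold change -1.01 ± 0.15, adjusted p = 0.0132). It was 1 of 36 genes, where 0.0427% of all genes tested changed, 0.0285% lower and 0.0142% higher. The call was lost without demyelination mouse 2 or without remyelination mouse 2, when 0 of the 36 passed. The level of Grn in remyelination was still above that of every mouse of untreated corpus callosum. Of the 36, 8 had an unadjusted p below 0.05 (14.1% of all genes), 7 of them lower, and 7 did not overlap (4.27%). Gusb (log2 fold change -1.003 ± 0.25, adjusted p = 0.29) and Lamp2 (log2 fold change -1.06 ± 0.30, adjusted p = 0.29) were lower and Laptm4a (log2 fold change 0.84 ± 0.26, adjusted p = 0.29) higher in remyelination, and none passed. Without a filter on low counts Gusb passed beside Grn, and with all 10 groups in the fit Lamp2 did.

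After axotomy the lysosomal genes moved less. On day 3, the edgeR test called 0 of the 36 genes against untreated facial nucleus, where it called 0.145% of all 19319 genes tested, 0.14% higher and 0.00518% lower. DESeq2 called 1, Atp6v1a, and 347 of all 19319 genes. In simulated counts for this comparison, 0% of 100 genes changed 2-fold were recovered, so 0 calls do not show an absence of change. The fitted change was above 0 for 26 and below 0 for 10, with a median of 0.41 against 0.04 over all genes. At an unadjusted p below 0.05 there were 13 of the 36, 12 higher and 1 lower, against 8.33% of all genes, and 8 did not overlap (5.1%). The share of gene counts of the 36 genes was 2.43%, 2.47%, 2.45% and 2.31% in the day 3 mice and 1.93%, 2.04%, 2.07% and 2.04% in the untreated ones, with every day 3 mouse above. Atp6v1a had the lowest p, at 466, 132, 137 and 579 CPM against 37.1, 70.7, 144 and 74.2 CPM (log2 fold change 2.03 ± 0.48, adjusted p = 0.165). Its day 3 mice split into a high and a low pair, and the low pair lay within the untreated range. Of 168 day 3 cells, 3 held 60.1% of the Atp6v1a reads, so its group mean rests largely on few cells. In untreated facial nucleus 3 cells held 36.7%. Grn was at 2194, 2907, 2394 and 2758 CPM against 1299, 1727, 1501 and 1519.7 CPM without overlap (log2 fold change 0.79 ± 0.20, adjusted p = 0.235) and among the alternatives run passed with all 10 groups in the fit. The lowest p among genes with lower levels belonged to Sgsh, at 12.8, 1.97, 19.9 and 8.94 CPM against 47.2, 51.5, 62.3 and 24.8 CPM without overlap (log2 fold change -2.07 ± 0.82, adjusted p = 0.464), and to Atp6ap1, at 429 ± 107 CPM against 606 ± 124 CPM (log2 fold change -0.48 ± 0.26, adjusted p = 0.741). Mitochondrial genes took a median of 3.09% of counts per cell on day 3 and 1.06% in untreated facial nucleus; its part in these values was not tested.

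By day 14 the levels lay near those of untreated facial nucleus. The test called 0 of the 36 genes and 0% of all genes, and 2 of the 36 had an unadjusted p below 0.05 (5.64% of all genes), while 4 did not overlap (3.88%). The fitted change was above 0 for 14 and below 0 for 22. Mcoln1 was at 121, 80.2, 142 and 112 CPM against 48.8, 34.9, 61.4 and 33.7 CPM without overlap (log2 fold change 1.38 ± 0.43, adjusted p = 0.629). DESeq2 called Mcoln1 alone of the 36, and 181 of all 19319 genes. Atp6v1a was at 119.9, 133, 182 and 157 CPM (log2 fold change 0.89 ± 0.47, adjusted p = 0.989). On the lower side, Arsb, which removes sulphate from dermatan sulphate, was at 37.3, 74.8, 29.3 and 121 CPM against 108, 155, 154 and 207 CPM (log2 fold change -1.23 ± 0.43, adjusted p = 0.629) and Sgsh at 19.9, 12.05, 7.57 and 23.6 CPM (log2 fold change -1.53 ± 0.81, adjusted p = 0.988). On the opposite strand, Card14 overlaps 21.6% of the exon length of Sgsh and Gm26527 overlaps 32.3% of that of Arsb.

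Between days 3 and 14, groups of the same plate, 9 genes were higher and 27 lower on day 14, with a median log2 fold change of -0.46 against 0.10 over all genes. The edgeR test called 0 of the 36 and 0.0259% of all genes, 11 had an unadjusted p below 0.05, all lower (6.6% of all genes), and 5 did not overlap (4.58%). DESeq2 called 2, Grn and Arsb, and 234 of all 19319 genes. Grn was at 1086, 841, 1513 and 1761 CPM on day 14 against 2194, 2907, 2394 and 2758 CPM on day 3 (log2 fold change -0.98 ± 0.20, adjusted p = 0.0958). Psap was at 1630.1, 1494, 2175 and 3139 CPM against 3749.6, 4034, 3968 and 3132 CPM (log2 fold change -0.82 ± 0.20, adjusted p = 0.214). Day 14 mouse 4 was the highest of its group for both, and without it Grn and Psap passed (2 of 36). The 2 genes of lowest p with higher levels on day 14 were Gla (2.28 ± 2.27) and Atp6ap1 (0.23 ± 0.26), both with an adjusted p of 0.999.

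Whether the early injury effects differed was tested as demyelination over corpus callosum minus day 3 over facial nucleus, in a fit of 24 sums. The test called 4 of the 36 genes, all with a larger change in demyelination, where 0.281% of all 22810 genes tested were called 0.171% in this direction and 0.11% in the other. The difference of log2 fold changes was 1.39 ± 0.26 for Grn (adjusted p = 0.00456), 1.39 ± 0.29 for Cd68 (0.0184), 2.35 ± 0.50 for Lipa (0.0215) and 1.31 ± 0.30 for Npc2 (0.0396). In day 3 itself Cd68 had a log2 fold change of 0.29 ± 0.22, Lipa of 0.45 ± 0.35 and Npc2 of 0.84 ± 0.23. For 32 of the 36 genes the fitted difference was above 0, with a median of 0.97 against -1.22 over all genes. The 4 calls depended on the libraries and the scaling. Leaving out 1 mouse at a time gave 1 to 6 calls. Grn was the sole call without facial nucleus mouse 4, without corpus callosum mouse 2 or without corpus callosum mouse 4. There were 2 calls without day 3 mouse 2, 3 or 4, without corpus callosum mouse 1, or without demyelination mouse 1 or 3. Without the composition scaling 0 passed and the median over all genes moved to -1.68, with 9 of the 36 at an unadjusted p below 0.05, and DESeq2 called 7. Since the 4 groups lie on 4 plates, plate and treatment cannot be told apart here either.

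The later change, remyelination over demyelination minus day 14 over day 3, compares steps that each lie within a plate. It called 0 of the 36 genes and 0.0307% of all genes, 0.0175% of them with a higher change after cuprizone, and 1 of the 36 had an unadjusted p below 0.05 (11.3% of all genes). Psap had the lowest p (0.87 ± 0.25, adjusted p = 0.275), followed by Atp6v1a (1.18 ± 0.61); DESeq2 called Psap alone, as did the edgeR test without day 14 mouse 4. On the lower side Atp6v1h (-1.30 ± 0.80) and Naglu (-1.05 ± 0.71) had the lowest p. For Grn the difference was -0.10 ± 0.26, from log2 fold changes of -1.01 ± 0.15 between the cuprizone stages and -0.98 ± 0.20 between the axotomy days.

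Across the 10 groups, the highest mean level lay in demyelination for 23 of the 36 genes, in remyelination for 7 and in other groups for 6. The lowest lay on day 14 after axotomy for 13 and in facial nucleus for 7. Mean Cd68 ran from 651 ± 163 CPM on day 14 to 3369.7 ± 463 CPM in demyelination, mean Lamp1 from 888 ± 227 CPM in facial nucleus to 3440.2 ± 466 CPM, and mean Npc2 from 455 ± 75.3 CPM in cerebellum to 3109 ± 272 CPM. For Lipa the range was 119.8 ± 43.9 CPM in corpus callosum to 825 ± 239.6 CPM, so the untreated region that serves as the control was the lowest of the 10 groups. Lamp2, at 1723 ± 155 CPM in demyelination, was lowest in facial nucleus at 566 ± 133 CPM, and Grn lowest on day 14 at 1300.2 ± 414 CPM. Laptm5 varied little, from 3239 ± 801 CPM on day 14 to 5729.7 ± 955 CPM. Psap was highest in remyelination at 6115 ± 997 CPM and lowest on day 14 at 2109 ± 747 CPM. Tfeb ranged from 11.6 ± 13.5 CPM in demyelination to 31.2 ± 19.2 CPM on day 3 with large SDs, and Atp6v0c from 2.65 ± 1.26 CPM in facial nucleus to 13.5 ± 7.23 CPM in corpus callosum. Neither was called in any comparison, and 3 of 173 cells held 77.8% of the Atp6v0c reads of corpus callosum. Atp6v0d2 had means of 0.266 to 1.43 CPM in the 8 groups other than the cuprizone stages and 58.3 ± 61.9 CPM and 58.6 ± 35.98 CPM in those. Its close relative Atp6v0d1 was at 436 ± 90.8 CPM in demyelination, so in these cells the widely expressed form was the more abundant of the pair, also per kilobase, at 243 against 21.5 CPM per kb.

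**Figure D5:**
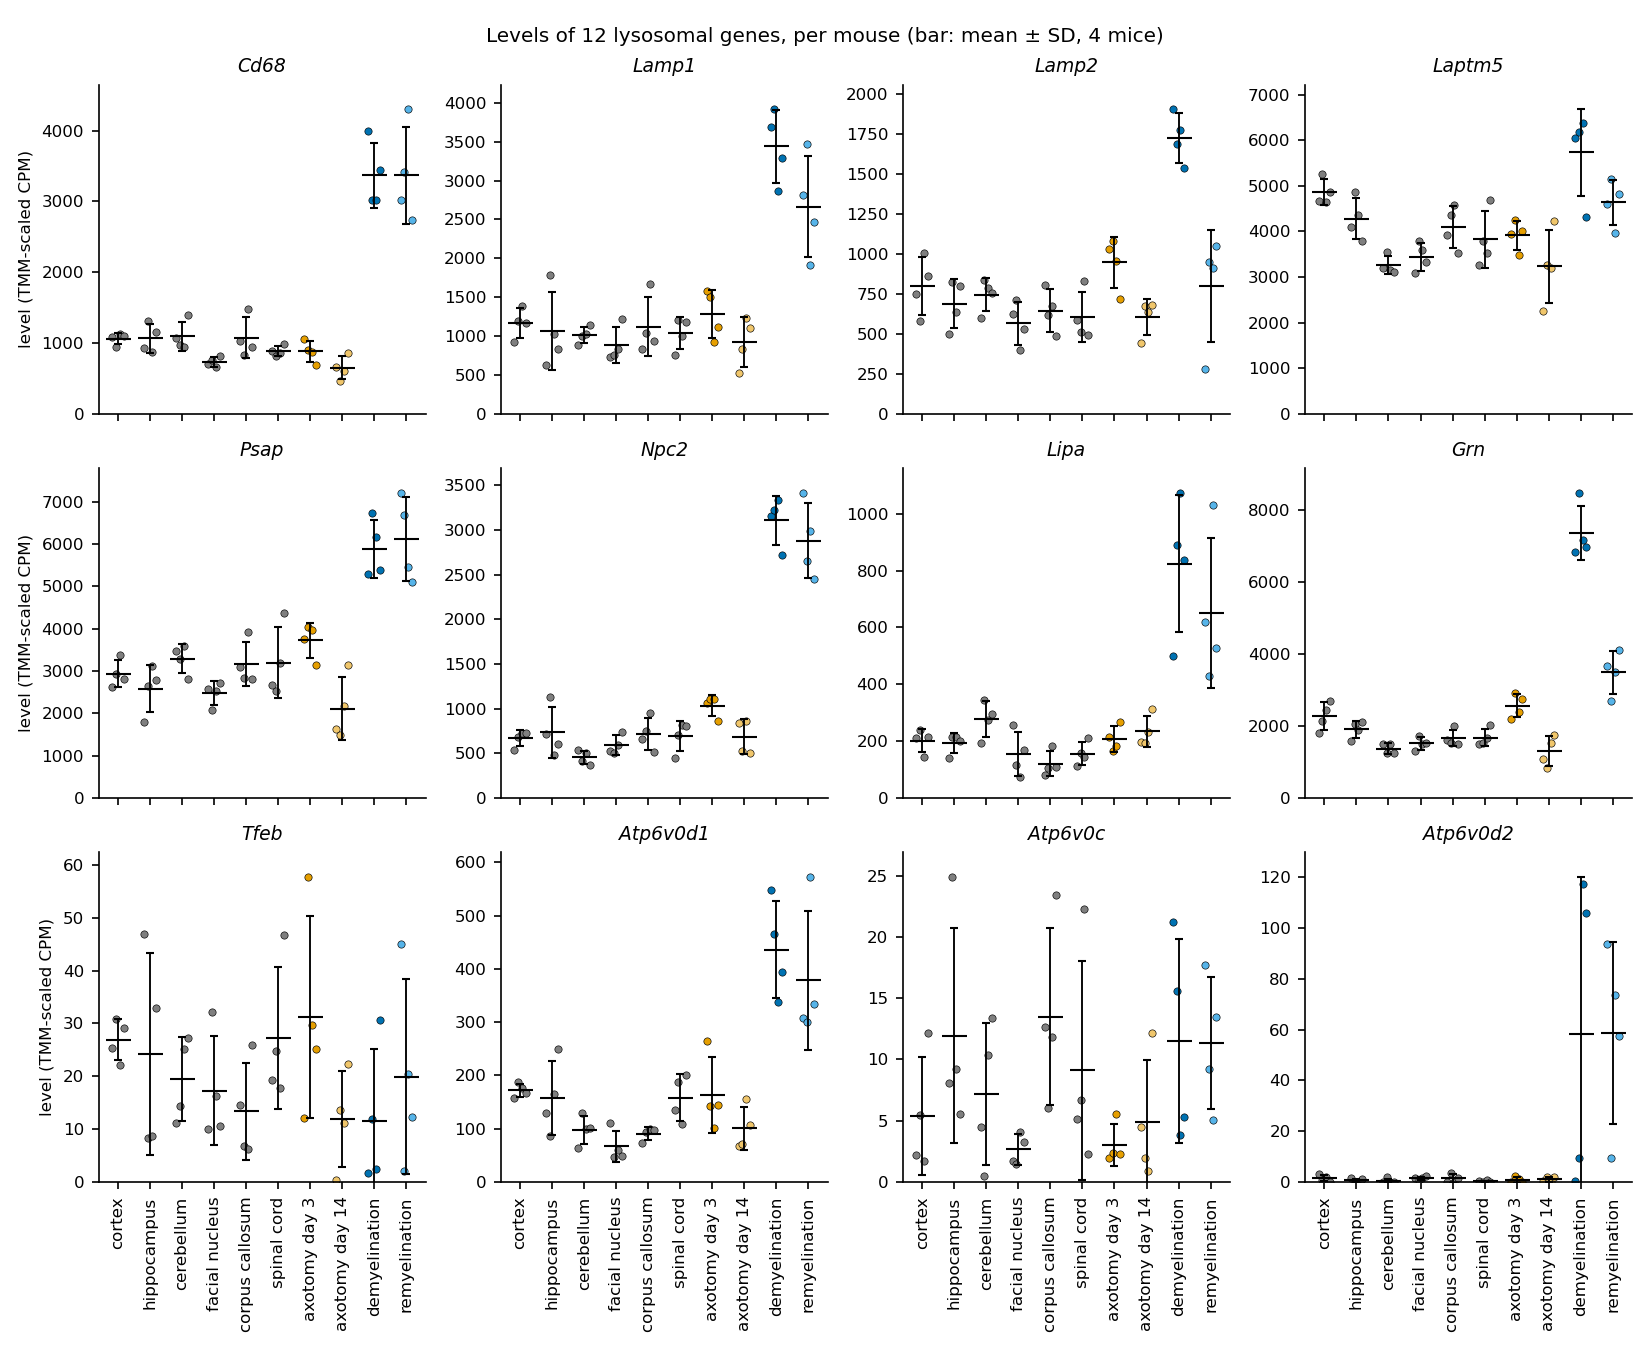
Level in TMM-scaled CPM (vertical axes, from 0) of 12 members in each mouse (points) of the 10 groups, with mean and SD over 4 mice (bars, cut at 0). Cd68, Lamp1, Psap, Npc2, Lipa, Grn and Atp6v0d1 are highest in the cuprizone stages, with every mouse of demyelination above every untreated mouse, Grn falls between demyelination and remyelination, and Tfeb and Atp6v0c show no such step.

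Other genes of the pathway were read from 4 lists of 77 genes in all. Of the other V-ATPase subunits tested in the cuprizone fit, 6 of 13 rose in demyelination (3.08% of all genes) and 4 of 13 in remyelination (2.51%). None fell. The largest in demyelination were Atp6v1e1 at 363.7 ± 31.5 CPM against 78.6 ± 19.6 CPM (log2 fold change 2.12 ± 0.37), Atp6v1c1 (2.01 ± 0.41) and Atp6v0e (1.93 ± 0.36), and in remyelination Atp6v1d (2.08 ± 0.50), Atp6v1e1 (1.97 ± 0.37) and Atp6v0e (1.65 ± 0.35). Among the other hydrolases and activators, Fuca1, alpha-fucosidase, rose in demyelination (1.40 ± 0.28) and in remyelination (1.27 ± 0.28), and Acp2, an acid phosphatase, fell in demyelination (-1.59 ± 0.39). Among 16 other membrane proteins, Gpnmb, a glycoprotein of macrophage endosomes and lysosomes, rose from 5.05 ± 5.44 CPM to 1677 ± 1470.5 CPM in demyelination (8.29 ± 0.94) and 1668 ± 663 CPM in remyelination (8.34 ± 0.94). Slc11a1, a metal ion transporter of phagocytic vesicles, rose in both (1.57 ± 0.29 and 1.88 ± 0.30), and Slc29a3, a lysosomal nucleoside transporter, fell in demyelination (-1.50 ± 0.35). Of 21 genes of lysosome biogenesis, signalling and sorting, 7 had an unadjusted p below 0.05 in demyelination (20.3% of all genes) and 0 passed by edgeR. In remyelination 1 of the 21 rose, Lamtor4 (1.76 ± 0.41), where 2.51% of all genes rose. On day 3 after axotomy 2 of 24 other hydrolases rose (0.14% of all genes), Naaa (2.34 ± 0.37, adjusted p = 0.00578) and Ifi30 (1.43 ± 0.26, adjusted p = 0.026).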

How the data were processed

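The submitters' processing notes name STAR 2.5.2b as aligner and featureCounts 1.5.1 as counter. The deposited tables hold whole-number counts per Ensembl gene and well. Whether strand was used, and how reads that fit several places were handled, is not given in the sources used here. Identifiers were named through GENCODE on GRCm38 (48349 of 48709), and 92 spike-ins were left out of totals. Cells with at least 20000 gene counts and 500 genes, under 25% mitochondrial and under 50% spike-in counts were kept, with no doublet call. Counts were summed into 40 sums per group and replicate and tested with edgeR 4.0.16 (quasi-likelihood, robust, TMM, filterByExpr with a minimum count of 10 and total of 15, Benjamini-Hochberg threshold 0.05), with DESeq2 1.42.0 as an alternative, in R 4.3.3. Scripts were tested on simulated data, and the share of changes recovered is given further on. The cuprizone groups with corpus callosum, the axotomy groups with facial nucleus, and the untreated regions were each fitted together. Chi-square per degree of freedom between sums of a group was at least 67.1 over 60 pairs, so none were duplicates.

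The members and lists were chosen with earlier results of these data known. All called members are named, with values for up to 12 of the largest fold; where none was called, the 2 of lowest p each way; 12 fixed members across groups; and up to 3 called genes per other list and direction. Uncalled members are given to account for every gene. A result of the other hydrolases is not reported here. Alternatives were another tool, scaling, count and cell filters, cell weights, all groups in a fit, a replicate block and leaving out each mouse.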

Additional observations from a re-analysis of the deposited data

Results flagged for a closer look

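A single mouse stood apart from the other 3 of its group, by Dixon's test, in 6 of 130 groups examined, where chance gives about 1 in 20. Lamp2 was low in a day 14 axotomy mouse, at 442 CPM, and Laptm5 in a demyelination mouse, at 4313 CPM. High single mice were seen for Atp6v0d1 in remyelination, at 573 CPM, for Atp6v0d2 in cerebellum, at 1.75 CPM, and for Atp6v0c on day 3 after axotomy, at 5.56 CPM. The summed share of the 36 genes was low in a cortex mouse, at 2.14% of gene counts.

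The early effects of cuprizone and of axotomy differed by a test of the difference itself for 4 genes, each with the larger rise in demyelination: Grn by 1.39, Cd68 by 1.39, Npc2 by 1.31 and Lipa by 2.35 on the log2 scale.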

How the results depend on the processing

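No called gene of the 36 changed direction in the alternatives run. Leaving out 1 mouse at a time gave 15 to 20 called genes in demyelination, 12 to 17 in remyelination, 0 to 1 between the cuprizone stages, 0 to 0 on day 3 and 0 to 0 on day 14 after axotomy, 0 to 2 between the axotomy days, 1 to 6 for the early difference, 0 to 1 for the late change and 0 to 0 among regions. Over all genes DESeq2 called 204 of 22907 among regions. Of 19319 tested in the axotomy fit, it called 347 on day 3, 181 on day 14 and 234 between the days. Of the 36 genes it called 3 among regions, 1 on day 3, 1 on day 14 and 2 between the axotomy days. It called 7 in the early difference and 1 in the late change. Without a filter on low counts there were 1 on day 3, 3 between the axotomy days and 2 between the cuprizone stages. With all 10 groups in the fit there were 1, 2 and 2. Scaling by library size alone, chosen after seeing the data, gave 10 in demyelination, 5 in remyelination and 0 in the early difference. The causes were not tested.

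In demyelination 10 genes kept their call in all 21 alternatives, Atp6v0d1, Atp6v1a, Cd68, Gaa, Gm2a, Grn, Gusb, Lamp1, Lipa and Npc2, and 5 in remyelination, Atp6v0d1, Atp6v1a, Cd68, Lipa and Npc2. Galns lost its call in 8 alternatives in demyelination and 6 in remyelination, and Man2b1 in 6 in demyelination. In the early difference, Npc2 lost its call in 16 of 33 alternatives, Lipa in 9, Cd68 in 6 and Grn in 1.

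In the axotomy and cuprizone fits same-numbered sums correlated at -0.06 to 0.05 in their deviations from group means, with no sign of pairing. Among the regions they correlated at -0.024 to 0.114, with a median of 0.052 against -0.014 for sums of unlike number. Whether the numbers mark mice among the regions is therefore not settled. With the replicate number as a block, 19 genes were called in demyelination, where Atp6ap1 lost its call and Gla gained one, 14 in remyelination, 1 among regions and 4 in the early difference, and the other counts were as without it. Low genes such as Tfeb, Atp6v0c, Sgsh and Gla had standard errors above 1 on the log2 scale in demyelination, so changes of 2-fold were not detectable there. How far this limit reaches among members with higher levels was not tested. Psap was called in demyelination and in remyelination at a log2 fold change below 1. In simulated counts, 0% of 100 genes given a log2 change of 1 were recovered, in demyelination and on day 3 after axotomy alike. At a log2 change of 2, 16% of 100 were recovered in demyelination and 17% on day 3. A gene that was not called is therefore not shown to be unchanged.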

Other observations

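Among the role groups, the fitted changes of the proton pump genes had the highest median in both cuprizone stages, 1.93 on the log2 scale in demyelination and 1.47 in remyelination, with 7 genes. The 11 lipid and sterol genes had medians of 1.32 and 1.09, the 6 membrane proteins of 1.18 and 0.76, and the 9 glycan, glycogen and peptide hydrolases of 1.28 and 0.64. No test of differences between the role groups was run. On day 3 after axotomy the medians of these 4 groups were 0.22, 0.40, 0.42 and 0.15, in the same order. The group of Grn, Tfeb and Mcoln1 had medians of 0.01 in demyelination, the lowest of the 5 groups, 0.56 in remyelination and 0.89 on day 3, the highest of the 5.

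Atp6v0d2 and Gla, both near 0 in untreated corpus callosum, differed in how their reads were spread over cells. Atp6v0d2 was read in 6 of 173 untreated, 12 of 161 demyelination and 13 of 129 remyelination cells. Gla, by contrast, was read in 43 of 161 demyelination cells, and its 3 highest cells held 33.2% of its reads. The contrast was weaker in remyelination, where Gla was read in 20 of 129 cells and 3 cells held 54.6% of its reads.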
